A study of Homo sapiens with 32 samples.

Results

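The 10 genes described here encode negative regulators of the mitogen-activated protein (MAP) kinases, 7 dual-specificity phosphatases (DUSP1, DUSP2, DUSP4, DUSP5, DUSP6, DUSP8 and DUSP10) and 3 Sprouty-type inhibitors of RAS signalling (SPRY2, SPRY4 and SPRED1). They were taken by gene symbol from the 47137 gene entries of the deposited tables, of which 18583 had values, and all 10 were counted in every library and tested in every comparison. RNA was measured in 32 libraries of HGrC1, an immortalised human granulosa cell line, with 4 libraries in each of 8 groups. The groups were cultures with 0.01, 0.1 or 1 µM perfluorooctane sulfonate (PFOS, a persistent surfactant) and cultures with vehicle (0.05% DMSO) as the control, each after 6 and after 12 weeks. Each of 4 vials of the line was thawed into its own flask and divided over the control and the PFOS concentrations, and PFOS was added anew at each passage. All groups grew in medium with serum and a steroid, which the sample labels give as estradiol and the methods of the study as testosterone. The comparisons address whether long-term, low-level PFOS exposure changed the RNA of these feedback genes.

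MAP kinases carry signals from growth factors, hormones and stress to the nucleus, in the ERK branch through RAS and RAF and in the JNK and p38 branches through stress-activated kinases. Several DUSP and Sprouty genes are themselves switched on by the pathway that their products shut down, so that they form a feedback loop. In granulosa cells, ERK signalling downstream of the luteinising hormone surge and of epidermal growth factor-like ligands is needed for ovulation. The nuclear phosphatases among the members are DUSP1, DUSP2, DUSP4 and DUSP5, of which DUSP5 acts on ERK alone. DUSP6 holds ERK inactive in the cytoplasm, and DUSP8 and DUSP10 act mainly on JNK and p38. SPRY2 and SPRY4 block the activation of RAS and RAF below receptor tyrosine kinases, and SPRED1 brings neurofibromin, which inactivates RAS, to the membrane.

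DUSP1 and SPRY2 were the members that passed the test against the control. For that reason the 250 bases before a start site of each are shown, as RefSeq gives them on GRCh38.p14. Both windows are upstream of the transcript, on the minus strand, at chr5:172771196-172771445 for DUSP1 and chr13:80341127-80341376 for SPRY2. SPRY2 had further windows before other starts, at chr13:80340109-80340358 and chr13:80339660-80339909, which are not shown. Capitals mark the cyclic AMP response element TGACGTCA and the TATA box TATAAA.
DUSP1: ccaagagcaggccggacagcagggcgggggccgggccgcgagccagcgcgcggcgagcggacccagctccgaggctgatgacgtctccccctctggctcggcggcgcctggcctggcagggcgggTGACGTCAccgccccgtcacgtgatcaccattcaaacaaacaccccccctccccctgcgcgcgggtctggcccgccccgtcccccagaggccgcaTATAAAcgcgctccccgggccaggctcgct
SPRY2: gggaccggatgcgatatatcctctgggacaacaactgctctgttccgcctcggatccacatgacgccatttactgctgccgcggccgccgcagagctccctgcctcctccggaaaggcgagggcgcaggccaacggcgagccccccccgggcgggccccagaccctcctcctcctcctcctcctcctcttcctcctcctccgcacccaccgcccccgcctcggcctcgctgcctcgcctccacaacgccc
The table of upstream windows held 11 windows for 8 of the 10 members, with none for DUSP4 and DUSP5. The element TGACGTCA, searched on both strands, lay at position −125 from the start of DUSP1, and 1.64% of all 34788 windows held it. In DUSP8 it lay at −118 and −74 from a transcript start within the gene span, in the window chr11:1572272-1572521 on the minus strand. The TATA box lay at position −30 of DUSP1 and was in 10.8% of all windows. No member window held the AP-1 site TGANTCA (6.59% of all windows), the ETS site CCGGAAG (8.5%) or a CArG box (1.17%), which says only that these letters were not in the windows searched.

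The genes lie on 9 chromosomes of GRCh38, with DUSP1 (gene ID 1843, chromosome 5, 172768096 to 172771195) and SPRY4 (gene ID 81848, chromosome 5, 142310430 to 142325021) on the same one. SPRY2 (gene ID 10253) is at chromosome 13, 80335976 to 80341126, DUSP2 (gene ID 1844) at chromosome 2, 96143169 to 96145440, and DUSP4 (gene ID 1846) at chromosome 8, 29333064 to 29350684. DUSP5 (gene ID 1847) is at chromosome 10, 110497907 to 110511533, DUSP6 (gene ID 1848) at chromosome 12, 89347235 to 89352501, and DUSP10 (gene ID 11221) at chromosome 1, 221701424 to 221742089. SPRED1 (gene ID 161742) is at chromosome 15, 38252836 to 38357249. DUSP8 (gene ID 1850) is at chromosome 11, 1554051 to 1572848 in RefSeq, since the deposited row joins a start on a patch sequence with an end on the chromosome.

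Each library held 17907057 to 18553350 counts. Of 14 granulosa markers 13 had values, and GATA4 and WT1, transcription factors of this lineage, had 2040 to 2816 and 1012 to 1450 counts per library. AMH, INHBA, INHBB and FST had 191 to 319, 123 to 412, 56 to 155 and 280 to 516 counts. Lower were HSD17B1 (43 to 86), STAR (16 to 81), FOXL2 (10 to 37), INHA (8 to 31) and NR5A1 (0 to 14). FSHR, the follicle-stimulating hormone receptor, had no value in the deposited data. CYP19A1, the aromatase, had 0 to 1 counts and AMHR2 0 to 3 counts, so that both of these defining markers were absent or nearly so in the line as cultured. KRT18 and KRT7, keratins of epithelial cells, had 32922 to 39940 and 11097 to 24343 counts, while the other two epithelial markers, EPCAM and CDH1, had 9 to 29 and 18 to 61 counts. Of the theca or stroma markers, DES had 2785 to 5607 and ACTA2 195 to 643 counts. The others there were PDGFRA (1 to 40), DCN (3 to 21), INSL3 (0 to 5), CYP17A1 (0 to 1) and LHCGR, which had no value. Transcripts of genes typical of liver (ALB, AFP, AHSG, APOB, GPC3 and AMBP) summed to 0 to 1 counts in each library of the 6-week control and 0.01 µM groups, 72 to 174 in 23 of the other 24 libraries, and 919 in replicate 3 of the 12-week control. The calls at 12 weeks are given with and without that library. In bulk RNA, fewer cells of a type and less RNA per cell cannot be told apart.

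DUSP1 stood far above the other members in level. It was at 849 ± 63.6 TPM (SD, n = 4) in the 6-week control and at 1212 ± 83.6 TPM (SD, n = 4) in the 12-week control, where TPM is the authors' level per transcript length, scaled to a fixed sum in each library. Over the 32 libraries its median of 923 TPM was above that of 99.2% of the genes with values. DUSP5 was next with a median of 57.8 TPM, followed by SPRY2 at 25.5, DUSP8 at 21.2 and DUSP2 at 19.1 TPM. SPRY4 (9.41 TPM) and DUSP4 (8.41 TPM) lay lower, and SPRED1 (3.47 TPM), DUSP10 (3.18 TPM) and DUSP6 (2.54 TPM) were lowest, with DUSP10 at 69 to 112 and DUSP6 at 81 to 180 counts per library. In the order of levels, DUSP8 and DUSP2 overlapped in the controls of both times, as did DUSP10 and DUSP6, while SPRY4 and DUSP4, and SPRED1 and DUSP10, overlapped in the 12-week control. The other neighbours did not overlap in either control. Between libraries a member varied by 1.43-fold (SPRED1) to 2.46-fold (DUSP2) in TPM from its lowest to its highest value.

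**Figure D1:**
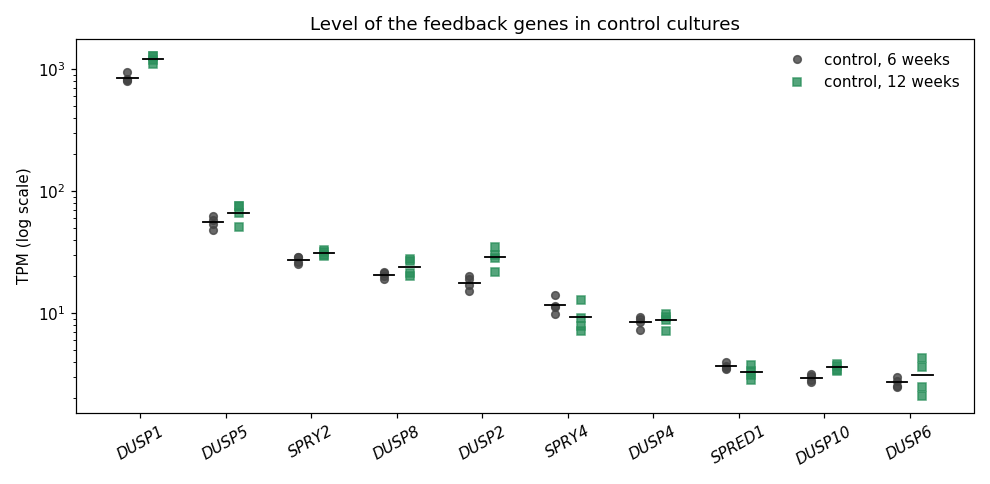
TPM (log scale) of each of the 10 genes in the control libraries after 6 weeks (circles) and 12 weeks (squares), with a bar at the mean of 4 libraries. DUSP1 lies at 800 TPM or more in every control library, and DUSP10 and DUSP6 overlap at the low end.

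Within a gene, libraries were compared by CPM, the counts scaled to the effective size of each library. Each PFOS group was set against the 4 control libraries of its own time in edgeR's quasi-likelihood test, and a gene was called at a Benjamini-Hochberg adjusted p of at most 0.05 over all genes of the comparison. Log2 fold changes are given with their standard error (SE). Of 60 tests of a member against its control, 4 were called, and the greatest change among them was a 1.37-fold lower level. Of all genes tested, 0%, 4.24% and 0.28% were called at 0.01, 0.1 and 1 µM after 6 weeks. After 12 weeks the shares were 0%, 1.07% and 0.22%. The 3 PFOS groups of a time share their 4 controls, so that their results are not independent of each other.

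After 6 weeks, DUSP1, a nuclear phosphatase that acts on p38, JNK and ERK and is itself an immediate early gene, was higher at 0.1 µM PFOS. The control libraries had 1056, 909, 939 and 915 CPM, in the order of the vials, and those at 0.1 µM had 1041, 1135, 1172 and 1238 CPM. The exposed library was above the control of its vial in 3 of 4 vials, and the groups overlapped through vial 1. The log2 fold change was 0.26 (SE 0.06, adjusted p = 0.0336 by edgeR), a change of 20%. DUSP1 was the 1 member called of 10, where 4.24% of all 12836 genes tested were called and 1.55% were called higher. The call was lost in 5 of 12 alternative settings (edgeR or DESeq2 adjusted p from 0.00148 to 0.22), among them those without replicate 2 (0.0509), 3 (0.22) or 4 (0.177), and the cause of these losses was not tested. Liver transcripts were at 0 to 1 counts in these controls and at 89 to 141 counts at 0.1 µM, where 5 of the 6 liver genes had counts in each of the 4 libraries and none of the 6 did so in the control. Mitochondrially encoded transcripts made up 4.8 to 5.04% of the control counts and 5.52 to 6.71% of those at 0.1 µM. The part of either in the DUSP1 result was not tested.

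The Sprouty genes did not pass at 6 weeks. SPRY2 had 37.4, 38.3, 34.4 and 32.6 CPM without PFOS, and the libraries at 0.1 µM had 28.9, 32.3, 32 and 33.1 CPM, with overlap of the groups. Its log2 fold change was −0.18 (SE 0.06, adjusted p = 0.0676 by edgeR). SPRY4 was lower at 0.1 µM than in the control in all 4 vials, at 31.5 ± 2.41 against 36.5 ± 5.25 CPM (SD, n = 4), a log2 fold change of −0.22 (SE 0.10, adjusted p = 0.239 by edgeR). Its adjusted p was 0.0392 with the vial as a replicate block, which brought the members called at 0.1 µM to 2, and the groups overlapped.

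At 0.01 µM after 6 weeks, 0 members and 0% of all genes were called by edgeR, with 2 members (DUSP4 and SPRED1) and 1232 genes under 0.05 before adjustment, while DESeq2 called 0 members and 1 gene. At 1 µM, 0 members were called against 0.28% of all genes, with 2 members (DUSP4 and SPRY2) under 0.05 before adjustment, and 0 members were called by DESeq2. DUSP5, the ERK-specific nuclear phosphatase, had 91.4, 83.1, 103 and 88.7 CPM at 1 µM against 88.3, 82.5, 76.4 and 67.7 CPM in the control. Its values were higher in 4 of 4 vials with overlapping groups, and the log2 fold change of 0.22 (SE 0.11) had an edgeR adjusted p of 0.417. The medians of the 10 log2 fold changes were 0.02, −0.02 and −0.07 at 0.01, 0.1 and 1 µM, each within 0.1 of the median of all genes.

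After 12 weeks, SPRY2, an inhibitor between growth factor receptors and RAS, was lower at 0.1 and 1 µM, and DUSP1 was lower at 0.1 µM. SPRY2 had 44.7, 39.5, 44.2 and 41.3 CPM without PFOS, in the order of the vials, and 29.7, 30.8, 30.7 and 32.6 CPM at 1 µM. The groups did not overlap, and the exposed libraries lay close together. The log2 fold change was −0.46 (SE 0.06, adjusted p = 0.000338 by edgeR). The mean was 31 ± 1.21 CPM against 42.4 ± 2.47 CPM in the control (SD, n = 4), a change of −27.2%. SPRY2 was the 1 member called at 1 µM, where 0.22% of all 12742 genes were called and 0.133% were called lower, and by p it stood at place 3 among all genes. All 13 alternative settings kept the call (adjusted p from 1.31e-08 to 0.0331), and without replicate 3 of the control, the library rich in liver transcripts, SPRY2 was again called. The liver transcripts were at 92 to 174 counts at 1 µM against 81 to 919 in the control, and the mitochondrial share was 4.4 to 5.75% against 4.79 to 5.38%.

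SPRY2 was also lower than the control at 0.1 µM, at 39.2, 32.8, 35.2 and 34 CPM. Each exposed library was below each control library, and vial 1 at 39.2 CPM came close to the lowest control of 39.5 CPM. The log2 fold change was −0.27 (SE 0.06, adjusted p = 0.024 by edgeR), a change of −16.9%. At 0.01 µM the values were 35.5, 36.5, 36.3 and 36.4 CPM, again with no overlap with the control. There the log2 fold change of −0.23 (SE 0.06) had an unadjusted p of 0.000555 in the fit and an edgeR adjusted p of 0.472. Between 1 and 0.1 µM the difference itself was −0.19 (SE 0.06, adjusted p = 0.622 by edgeR). The 4 libraries at 1 µM lay below the 4 at 0.1 µM, which 3.05% of all genes did.

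DUSP1 had 1502, 1306, 1535 and 1401 CPM in the 12-week control and 1247, 940, 1012 and 1024 CPM at 0.1 µM. Every exposed library lay below every control library. The log2 fold change was −0.45 (SE 0.09, adjusted p = 0.0179 by edgeR), a change of −26.6%. DUSP1 and SPRY2 made 2 members called of 10 at 0.1 µM, both lower, against 1.07% of all genes called and 0.542% called lower. Without replicate 3 of the control alone, 0 members were called, with log2 fold changes of −0.41 for DUSP1 (adjusted p = 0.0924 by edgeR) and −0.25 for SPRY2 (adjusted p = 0.129 by edgeR). The DUSP1 call was also lost when vial 3 (0.24) or 4 (0.179) was left out of all groups, and the SPRY2 call without vial 2 (0.101), 3 (0.423) or 4 (0.167). Over the 13 alternatives DUSP1 was called in 10 (adjusted p from 0.000234 to 0.24) and SPRY2 in 8 (from 0.00531 to 0.423). Mitochondrial transcripts took 5.18 to 5.88% of the counts at 0.1 µM, and liver transcripts 95 to 155 counts. Their part in these results was not tested.

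At the other concentrations DUSP1 did not pass. At 0.01 µM it had 1257, 995, 1305 and 1040 CPM, each below the lowest control value of 1306, with a log2 fold change of −0.33 (SE 0.09, adjusted p = 0.505 by edgeR). At 1 µM it had 1306, 1360, 1204 and 1276 CPM, which overlapped with the control (log2 fold change −0.16, SE 0.09, adjusted p = 0.614 by edgeR). The values at 1 µM were above those at 0.1 µM in 4 of 4 vials, and that difference of 0.28 (SE 0.09) had an edgeR adjusted p of 0.622.

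The other nuclear phosphatases lay below the control at 12 weeks without passing the test. DUSP4, which acts on ERK and JNK, had 31, 25.6, 35.6 and 33.3 CPM without PFOS, 25.4, 22.2, 24.7 and 20.5 CPM at 0.01 µM and 26.8, 24.5, 22.9 and 20 CPM at 0.1 µM. The groups at 0.01 µM and in the control did not overlap, and those at 0.1 µM overlapped. Its log2 fold changes were −0.44, −0.42 and −0.40 (SE 0.12 each) at 0.01, 0.1 and 1 µM, with edgeR adjusted p of 0.52, 0.109 and 0.261. At 0.1 µM DUSP4 was called in 3 of 13 alternatives (adjusted p from 0.0285 to 0.661), which were DESeq2 (0.0348), the fit without vial 2 (0.044) and the fit of all 32 libraries (0.0285). DUSP2 had 33.2, 27, 29.4 and 21.3 CPM without PFOS and 21.9, 15.7, 18.8 and 15.6 CPM at 0.01 µM. It was lower in every vial, the groups overlapped by 1 library, and the log2 fold change of −0.63 (SE 0.19, adjusted p = 0.565 by edgeR) was the lowest value of any member against its control. The mean of DUSP5 was 99.9 ± 17.2 CPM (SD, n = 4) without PFOS and 74.7 ± 11.6 CPM (SD, n = 4) at 1 µM, with a log2 fold change of −0.42 (SE 0.19, adjusted p = 0.563 by edgeR).

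Of the phosphatases of JNK and p38, DUSP10 had 5.32, 5.41, 6 and 6.11 CPM in the 12-week control and 5.01, 4.39, 3.76 and 4.03 CPM at 0.1 µM. The groups did not overlap, and the log2 fold change was −0.41 (SE 0.12, adjusted p = 0.0905 by edgeR), called in 2 of 13 alternatives (from 0.0278 to 0.664), 1 of them without vial 1 (0.042). DUSP8 had log2 fold changes of −0.06, −0.03 and −0.14 (SE 0.09 each). Among the remaining members, DUSP6 averaged 7.03 ± 2.2 CPM without and 5.24 ± 0.535 CPM with 0.1 µM PFOS (SD, n = 4 each, log2 fold change −0.42, adjusted p = 0.295 by edgeR), and its control libraries alone ran from 4.75 to 9.53 CPM. SPRY4 at 1 µM had a log2 fold change of −0.37 (SE 0.21, adjusted p = 0.642 by edgeR). SPRED1, with −0.04, 0.14 and 0.07 (SE 0.08 each), had the highest value of the members at 0.1 and 1 µM.

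At 0.01 µM after 12 weeks, 0 members and 0% of all genes were called by edgeR, with 4 members (DUSP1, DUSP2, DUSP4 and SPRY2) and 1080 genes with p under 0.05 before adjustment, and DESeq2 called 0 genes. Libraries of the 2 groups did not overlap, with PFOS lower, for 3 members (DUSP1, DUSP4 and SPRY2) at 0.01 µM against 1.42% of all genes, for 3 (DUSP1, DUSP10 and SPRY2) at 0.1 µM against 3.86%, and for 1 (SPRY2) at 1 µM against 3.34%. At each of the 3 concentrations, 9 of the 10 log2 fold changes were below 0, against 48.9%, 51.9% and 51.7% of all genes. The medians over the members were −0.15, −0.35 and −0.24, and those over all genes within 0.01 of 0. Without replicate 3 of the control the members' medians were −0.14, −0.32 and −0.27, again with 9 of 10 below 0. The members share the 4 control libraries and are not replicates of each other, so no test was made on these counts.

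**Figure D2:**
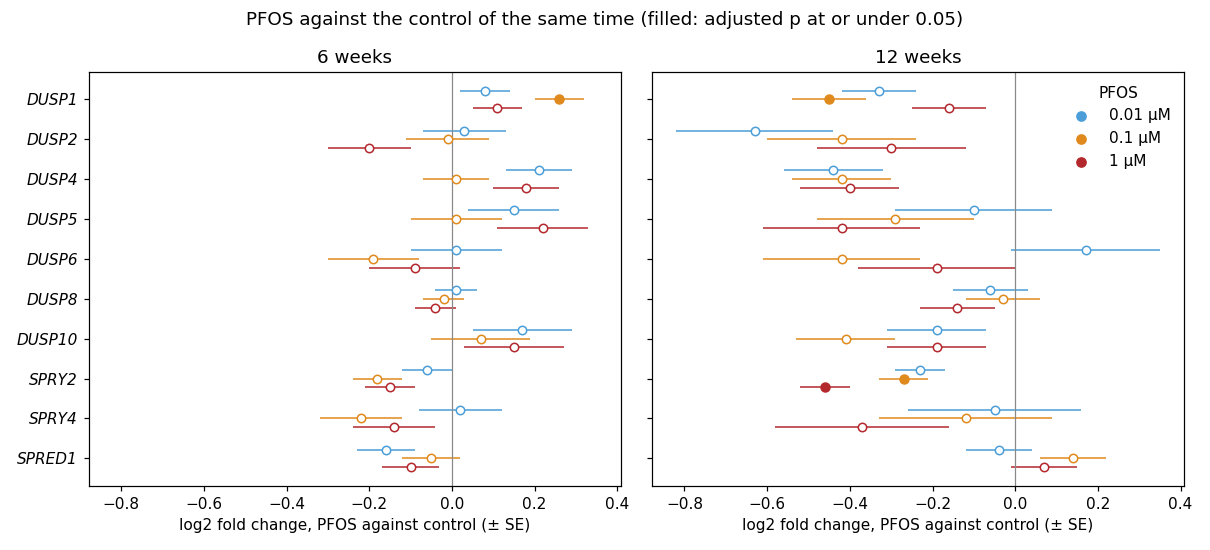
Log2 fold change (x axis, ± standard error) of each of the 10 genes at 0.01, 0.1 and 1 µM PFOS against the control of the same time, after 6 weeks (left) and 12 weeks (right); filled points have an edgeR adjusted p at or under 0.05. DUSP1 at 0.1 µM lies at 0.26 after 6 weeks and at −0.45 after 12 weeks, and SPRY2 at 1 µM lies at −0.46 after 12 weeks.

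From 6 to 12 weeks the control cultures themselves moved. In the fit of all 32 libraries, 5 of the 10 members were higher in the 12-week control, against 36.6% of all 12988 genes called and 17.3% called higher. DUSP2 had 18.3, 14.2, 15.6 and 17.4 CPM at 6 weeks and 33.2, 27, 29.4 and 21.3 CPM at 12 weeks. No library overlapped, as for 4 members (DUSP1, DUSP2, DUSP10 and SPRY2) and 14.8% of all genes in this direction, and the log2 fold change was 0.76 (SE 0.16, adjusted p = 0.000449 by edgeR). DUSP1 rose in 4 of 4 vials (log2 fold change 0.59, SE 0.08, adjusted p = 1.91e-06 by edgeR), and SPRY2 by less (0.25, SE 0.06, adjusted p = 0.000856 by edgeR). DUSP10 (0.37, adjusted p = 0.00909 by edgeR) and DUSP8 (0.28, adjusted p = 0.00682 by edgeR) rose as well, and each lost its call in 1 of 12 alternatives, DUSP10 without vial 4 (0.0872) and DUSP8 without vial 2 (0.155). SPRY4, with −0.30 (SE 0.17, adjusted p = 0.172 by edgeR), was called lower with the vial as a replicate block (0.0272) and without vial 1 (0.008). Time, passage number and day of harvest cannot be told apart here, and liver transcripts rose from 0 to 1 to 81 to 919 counts between the same controls.

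The PFOS cultures were compared between the times in the same way. At 0.01 µM, 3 members were called against 42.7% of all genes, DUSP4 lower (−0.53, SE 0.11, adjusted p = 0.000304 by edgeR) and DUSP6 (0.43) and DUSP8 (0.21) higher. At 0.1 µM, 3 were called against 40.3%, DUSP4 lower (−0.31) and DUSP8 (0.28) and SPRY2 (0.16) higher. At 1 µM, 4 were called against 30.1%, DUSP1 (0.32) and DUSP2 (0.67) higher and DUSP4 (−0.46, SE 0.11, adjusted p = 0.00215 by edgeR) and SPRY4 (−0.52, SE 0.17, adjusted p = 0.0246 by edgeR) lower. DUSP4 was thus lower with time in each PFOS group, where the control had a value of 0.12 (SE 0.11, adjusted p = 0.417 by edgeR). Leaving out vials ended several of these calls by edgeR. At 0.01 µM these were DUSP6 without vial 3 (adjusted p = 0.112) and DUSP8 without vial 1 (0.177) or 3 (0.112), while DUSP1 (0.19) was called without vial 2 (0.0156) and SPRY4 (−0.35) with the replicate block (0.00655) and without vial 1 (0.000471). At 0.1 µM, DUSP4 was lost without vial 3 (0.12) or 4 (0.121), DUSP8 without vial 1 (0.0716) and SPRY2 without vial 1 (0.449) or 3 (0.0883), while DUSP1 (−0.12) and SPRY4 (−0.20) were called lower without vial 1 (0.0175 and 0.04). At 1 µM, SPRY4 was lost without vial 2 (0.0609), 3 (0.105) or 4 (0.064), and DUSP8 (0.19) was called without vial 1 (0.0463). For DUSP4, the tests of the contrast, the PFOS effect at 12 weeks minus that at 6 weeks, gave −0.65, −0.43 and −0.58 at 0.01, 0.1 and 1 µM with edgeR adjusted p of 0.343, 0.195 and 0.14.

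The PFOS effect on DUSP1 at 0.1 µM differed between the times. Its log2 fold change at 12 weeks minus that at 6 weeks was −0.71 (SE 0.12, adjusted p = 0.00304 by edgeR), and by p it stood at place 5 of all genes. DUSP1 was the 1 member called in this test, against 0.208% of all genes called and 0.162% called lower. From 6 to 12 weeks it was higher in the control in 4 of 4 vials and lower at 0.1 µM in 3 of 4 vials, with vial 1 going from 1041 to 1247 CPM. The call was kept in 9 of 11 alternatives (adjusted p from 1.07e-06 to 0.336) and lost without vial 3 (0.125) or vial 4 (0.336). At 6 weeks the control had 0 to 1 liver counts and 4.8 to 5.04% mitochondrial counts, against 89 to 141 and 5.52 to 6.71% at 0.1 µM. The part of either in this difference was not tested. At 0.01 and 1 µM the difference was −0.40 (SE 0.12, adjusted p = 0.472 by edgeR) and −0.26 (SE 0.12, adjusted p = 0.369 by edgeR), and 0 members were called there against 0% and 0.123% of all genes (edgeR, with 972 and 1571 genes and 5 members each at an unadjusted p under 0.05, where DESeq2 called 2 and 76 genes and 0 members). SPRY2 had a difference of −0.30 (SE 0.08, adjusted p = 0.14 by edgeR) at 1 µM.

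**Figure D3:**
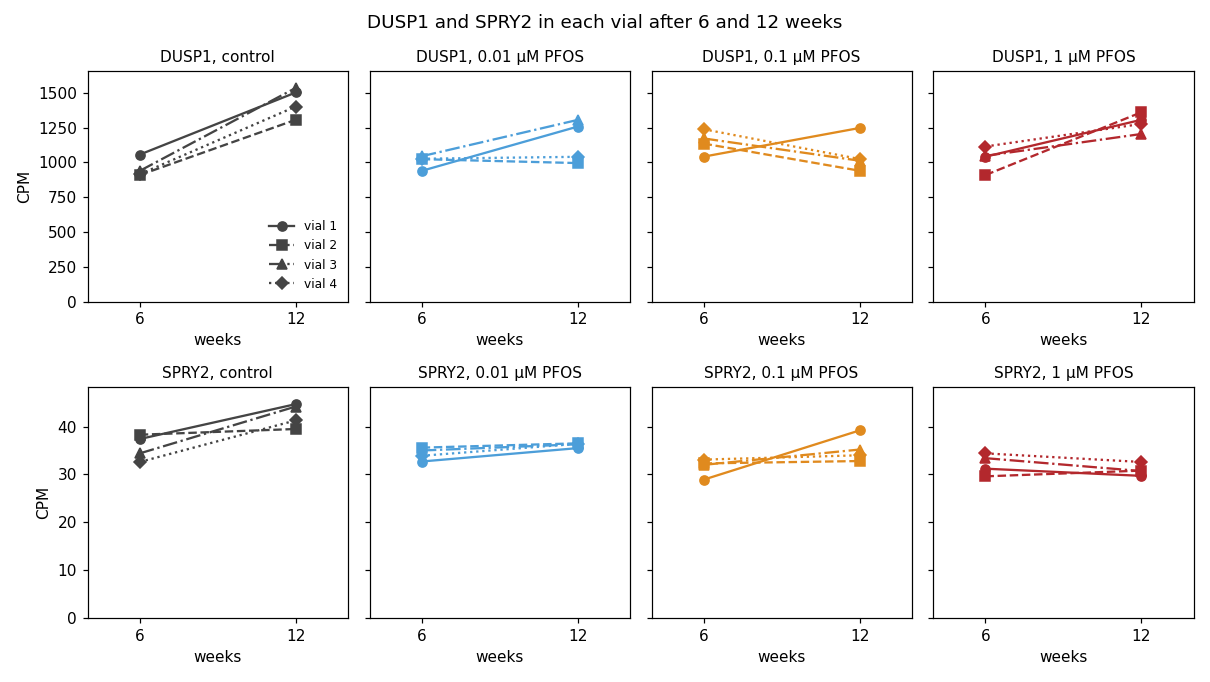
CPM of DUSP1 (top) and SPRY2 (bottom) after 6 and 12 weeks, in the control and at 0.01, 0.1 and 1 µM PFOS, with a line for each of the 4 vials. DUSP1 goes up in each control vial and down in 3 of the 4 vials at 0.1 µM, and SPRY2 at 1 µM stays between 29.6 and 34.4 CPM at both times.

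No member was called between 1 and 0.1 µM PFOS at either time, against 0.0857% of all genes at 6 weeks and 0% at 12 weeks (edgeR, with 802 and 984 genes and 2 members each time at an unadjusted p under 0.05, where DESeq2 called 25 and 0 genes). At 6 weeks the libraries of DUSP4 did not overlap, with 31.5, 32.4, 31.6 and 35.6 CPM at 1 µM above 26.3, 30.5, 31.3 and 28.5 CPM at 0.1 µM, where 2.1% of all genes did so in that direction. The log2 fold change was 0.17 (SE 0.08, adjusted p = 0.787 by edgeR).

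Other genes of the same pathways were read from lists beside the members. For comparison, 0%, 4.24% and 0.28% of all genes tested were called at 0.01, 0.1 and 1 µM after 6 weeks. After 12 weeks these shares were 0%, 1.07% and 0.22%. Of 14 further DUSP, Sprouty and related genes, 13 were tested at 6 weeks, and 3 were lower at 0.1 µM and 0 higher. These were DUSP14 (−0.22), DUSP3 (−0.15), a small phosphatase that acts on ERK and JNK, and PEA15 (−0.17), which anchors ERK in the cytoplasm (edgeR adjusted p of 0.0251, 0.0332 and 0.037), and each lost its call without vial 3 (0.258, 0.251 and 0.275) or 4 (0.154, 0.157 and 0.205). DUSP3 also lost it without vial 1 (0.0781) or 2 (0.0528), and PEA15 without vial 1 (0.0541). In the fit of all 32 libraries each was lost as well (0.0871, 0.102 and 0.139). All 14 were tested at 12 weeks, and 0 were called at any concentration. In the RAS to ERK cascade, 22 genes from the receptors to the kinases of ERK targets, SOS2 was higher (0.20) and MAP2K2, an ERK kinase, lower (−0.14) at 0.1 µM after 6 weeks (edgeR adjusted p of 0.0332 and 0.0235), and 0 were called in the other 5 comparisons with the control. SOS2 lost its call without vial 1 (0.0805), 2 (0.1), 3 (0.118) or 4 (0.145), and MAP2K2 without vial 1 (0.0785), 3 (0.124) or 4 (0.163). Both were also lost in the fit of all 32 libraries (0.0836 and 0.137). Of 17 genes of the JNK and p38 cascade, 1 was higher and 2 were lower at 0.1 µM after 6 weeks, and 0 were called elsewhere. MAP2K3, an activator of p38, was at 43.9 ± 2.11 CPM against 55.7 ± 2.41 CPM in the control (SD, n = 4). Its log2 fold change was −0.35 (SE 0.05, adjusted p = 0.00019 by edgeR), with a call in 12 of 12 alternatives. The others were MAPKAPK2 (−0.19, called in 8 of 12 alternatives) and MAP3K1 (0.20, called in 5), and neither was called without vial 1, 3 or 4. In the fit of all 32 libraries neither was called (0.113 and 0.174).

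Target genes of the ERK pathway that are no members formed a further list. Of 16 tested at 12 weeks, 3 were lower and 0 higher at 0.1 µM, with a list median of −0.30, and 0 were called at 0.01 µM (median −0.17) and 1 µM (median −0.13). Over all genes, 0.542% were called lower at 0.1 µM. MYC, a growth-promoting transcription factor, was at 255 ± 16.8 CPM against 351 ± 33.9 CPM in the control (SD, n = 4). Its log2 fold change was −0.46 (SE 0.06, adjusted p = 0.000778 by edgeR), with a call in 12 of 13 alternatives that was lost without vial 3 (0.0646). PHLDA1 (−0.64) and IER3 (−0.81) were the others, each called in 7 of 13 and not without replicate 3 of the control (0.104 and 0.0829). PHLDA1 was also lost without vial 1 (0.0939), 3 (0.206) or 4 (0.248), and IER3 without vial 2 (0.0808), 3 (0.378) or 4 (0.305). With the vial as a replicate block IER3 was not called (0.0813). PHLDA1 was also the 1 gene of this list called at 6 weeks, where it was higher at 1 µM (0.35, adjusted p = 0.00295 by edgeR). That call was lost without vial 3 (0.0815) and in the fit of all 32 libraries (0.298). In that comparison 0.28% of all genes were called.

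Immediate early genes, like DUSP1, respond to a stimulus without new protein synthesis. At 12 weeks, 4 of 21 were lower and 0 higher at 0.1 µM (list median −0.39), 1 was lower at 1 µM (median −0.34) and 0 at 0.01 µM (median −0.17). Over all genes, 0.542% were called lower at 0.1 µM and 0.133% at 1 µM, and 0% were called at 0.01 µM. ATF3, a stress-induced transcription factor, fell from 376 ± 36.5 to 216 ± 27.5 CPM at 0.1 µM and to 267 ± 25.6 CPM at 1 µM (SD, n = 4 each), with log2 fold changes of −0.80 (adjusted p = 0.000778 by edgeR) and −0.50 (adjusted p = 0.0308 by edgeR). The first was called in 13 of 13 alternatives and the second in 8, not without replicate 3 of the control (0.139). The second was also lost without vial 2 (0.0564), 3 (0.317) or 4 (0.23). JUN (−0.59) was lower at 0.1 µM, as were KLF4 (−0.97) and FOSB (−0.91), which are named only to complete the count and were chosen after their values were seen. At 6 weeks, 2 of 20 were higher (CCN2 at 0.26 and EGR1 at 0.68) and 2 lower (NR4A3 at −1.32 and KLF4 at −0.39) at 0.1 µM, of which EGR1 and KLF4 were likewise chosen afterwards. In that comparison 4.24% of all genes were called and 1.55% were called higher. At 1 µM, 2 were higher, CCN2 (0.35) and KLF6 (0.20), against 0.28% of all genes called. Leaving out a vial ended the calls of JUN (without vial 3 at 0.0845 or 4 at 0.068), of NR4A3 (without vial 3 at 0.0994) and of CCN2 at 0.1 µM (without vial 1 at 0.0781, 3 at 0.103 or 4 at 0.117). At 1 µM it ended those of CCN2 (without vial 1 at 0.0836 or 4 at 0.129) and KLF6 (without vial 3 at 0.206 or 4 at 0.065). In the fit of all 32 libraries, CCN2 at 0.1 µM (0.127) and 1 µM (0.194) and KLF6 at 1 µM (0.107) were not called. Between the controls of 12 and 6 weeks, 12 of 21 were called higher and 1 lower (list median 0.35), against 36.6% of all genes called and 17.3% called higher. In the test of the difference between times at 0.1 µM, 4 of 21 immediate early genes and 2 of 16 other ERK targets were called, each lower (edgeR). Over all genes, 0.208% were called in this test and 0.162% called lower.

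Over the 32 libraries, the profile of DUSP1 in log2 CPM was most like those of FOS (Pearson's r = 0.80), DUSP2 (0.80) and NR4A1 (0.79). Within the groups, after each group's mean was taken out, these r were 0.62, 0.70 and 0.78. SPRY2 was most like MAFF (0.83), CSRNP1 (0.82) and TIPARP (0.80), with 0.44, 0.35 and 0.41 within groups. DUSP4 was most like RHOF (0.87), IL6 (0.85) and HLA-E (0.84), and DUSP5 like KLF2 (0.81), BHLHE40 (0.77) and DDIT4 (0.77). For DUSP8 the leading genes were ELOA (0.89), IRF2BP1 (0.89) and PPP1R26 (0.87), for SPRY4 MEF2D (0.81), MAFG (0.80) and KDM6B (0.80), and for DUSP2, after DUSP1, WT1 (0.78) and NR4A1 (0.78). DUSP6 (KLF2 0.74 and USF2 0.71), DUSP10 (CITED2 0.76, NDUFA3 0.73, VIM 0.73) and SPRED1 (ZNF274 0.69, BIK 0.62, CHADL 0.59) had leading r of 0.76 or less. Among the 45 pairs of members, DUSP1 with DUSP2 (0.80) and DUSP2 with DUSP8 (0.65) had the highest r, and DUSP1 with SPRY2 had 0.43. Within groups these r were 0.70, 0.38 and 0.62, and that of DUSP5 with DUSP6 was 0.69. These r describe libraries that share vials, times and library preparation, and no p is given for them.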

How the data were processed

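RNA of HGrC1 cells was measured in 32 poly(A) libraries of a stranded protocol, sequenced on a DNBSEQ platform. Per the study's methods and the submitters' processing notes, the authors filtered reads, aligned them to GRCh38.p14 with HISAT2 (2.0.4) or to reference genes with Bowtie2 (2.2.5), and estimated expression with RSEM (1.2.8). The deposited expected counts per gene are not normalized, and the TPM values of the authors are per length and per library. The deposited FPKM and normalized counts were not used here.

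Expected counts were rounded to whole numbers and tested with edgeR 4.0.16 (R 4.3.3; TMM, filterByExpr, robust quasi-likelihood test, two-sided, Benjamini-Hochberg). PFOS groups were compared within the 16 libraries of each time (12836 and 12742 genes), and times within all 32 (12988 genes). A gene was called at an adjusted p of at most 0.05. Standard errors were derived from the F statistic. CPM were scaled by TMM over all 32 libraries. With 4 libraries against 4, an exact permutation test cannot go below p = 0.0286. On simulated data for 0.1 µM against control at 6 weeks (12792 genes), 200 of 200 changed genes were recovered, with 9 false calls. The changed genes were well counted, and all were shifted up or down by the same fold, larger than any called change of a member. All genes had the same simulated dispersion, and no vial effect was included. Recovery at the size of the members' own changes, at most 1.37-fold among those called, was not tested separately.

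Groups and replicate numbers came from the sample labels. Per the study's methods each vial was divided over the control and the PFOS concentrations, so libraries with the same replicate number were taken to share a vial. The mean correlation of the deviations of same-numbered libraries was 0.055 to 0.124 at 6 weeks and −0.161 (control and 1 µM) to 0.154 at 12 weeks. The 4 vials come from 1 cell line, and p-values measure the spread between them. All 48 pairs of libraries within groups differed beyond sampling noise (chi-square per degree of freedom 2.35 to 16.9). Counting with strand or of near-identical copies was not given in the sources used here.

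The members, lists and tests were chosen with earlier results of these data known. All members are named. Of each list, at most 5 genes with the lowest adjusted p among those called against the control are named, and for likeness the 3 genes with the highest Pearson's r of log2(CPM + 1) over 32 libraries, of which 1 for DUSP6 is not reported here. Alternatives were another normalization (RLE), 2 other filters, DESeq2 1.42.0, no robust option, the vial as a block, leaving out each vial or replicate 3 of the 12-week control, and other sets of libraries in the fit. Upstream windows came from a RefSeq table of GRCh38.p14.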

Additional observations from a re-analysis of the deposited data

Results flagged for a closer look

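DUSP8 at 0.1 µM PFOS after 12 weeks had 79.3 CPM in replicate 1, apart from the other 3 libraries at 66.1 to 66.5 CPM. The gap was 0.971 of the range of the group. DUSP6 at 1 µM PFOS after 12 weeks had 7.95 CPM in replicate 4, against 5.47 to 5.87 CPM in the others, a gap of 0.837 of the range. These were 2 of 80 groups of 4 libraries examined by Dixon's criterion, where chance alone gives about 1 in 20. The PFOS effect on DUSP1 at 0.1 µM differed between 12 and 6 weeks by −0.71 on the log2 scale (edgeR adjusted p = 0.00304 in the test of the difference). That call was lost without vial 3 (edgeR adjusted p = 0.125) or vial 4 (0.336). Liver and mitochondrial transcripts also differed between the groups at 6 weeks, and their part was not tested.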

How the results depend on the processing

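Of 1770 values of a member in a comparison under an alternative, 1677 kept the direction and the side of the threshold, 28 lost a call, 17 gained one and 48 changed sign while not called in either. No called value changed sign. At 0.1 µM after 6 weeks (1 member called), the fit without a filter on low counts and the fit of all 32 libraries each gave 0, and leaving out a vial gave 0 to 1. With the vial as a replicate block it was 2. The block, fitted because libraries with the same replicate number were taken to share a vial, also added SPRY4 over time in the control (edgeR adjusted p = 0.0272) and at 0.01 µM (0.00655) and changed no other call of a member. At 0.1 µM after 12 weeks (2 called), the fit without replicate 3 of the 12-week control gave 0, that of the 8 libraries of the 2 groups 1, that of all 32 libraries 4, and leaving out a vial 0 to 3. Over time, leaving out a vial gave 1 to 4 called at 0.01 µM and 1 to 3 at 0.1 µM (3 each as reported, and 4 each with DESeq2), and for the difference between times at 0.1 µM 0 to 1. At 0.01 µM, the comparisons with the control and the difference between times gave 0 members under every alternative run. Over all genes, the number called at 0.1 µM moved from 544 to 49 at 6 weeks and from 136 to 540 at 12 weeks in the fit of all 32 libraries. Over the alternatives it ran from 22 to 739 at 0.1 µM and 5 to 178 at 1 µM (36 as reported) after 6 weeks, from 4 to 540 and 8 to 136 (28 as reported) after 12 weeks, and for the difference between times from 1 to 142 at 0.1 µM (27 as reported) and 1 to 76 at 1 µM (16 as reported). For 1 against 0.1 µM it ran from 1 to 25 at 6 weeks (11 as reported) and from 0 to 1 at 12 weeks (0 as reported). Over time at 1 µM it fell from 3903 to as few as 2498 without a vial. At 0.01 µM it was 0 to 6 at 6 weeks, 0 at 12 weeks and 0 to 3 for the difference. DUSP6 and DUSP10 rest on few counts. The causes of these changes were not tested.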
